A study of Solanum lycopersicum with 24 samples.

Results

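Transcript counts of gland cells from tomato leaf trichomes were compared between plants collected in May and plants collected in March. The May group held replicates 3 and 4, whose tables carry stamps that read as 5 and 12 May. The March group held replicates 1 and 2, with stamps that read as 19 and 28 March. Each month thus had 6 libraries, 2 from each of 3 genotypes, and these 12 are all the libraries of the series. The comparison covered all 34725 gene models of the tables, of which 17450 had enough counts to be tested.

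The genotypes were the af mutant and its complemented lines CHI4 and CHI9, each present in both months. Labels give no allele, construct, promoter or number of transformation events, and that af is defective in the chalcone isomerase gene CHI1, which the lines carry again, is general knowledge. All plants had been raised for 5 weeks in a growth chamber at 28 °C under 250 µE of light, and cells were taken from type VI trichomes. The labels number the sampling times from 1 to 4 without a calendar date. What the stamps mark (harvest, extraction or sequencing) and the year are not stated, and with 2 collections a month the month cannot be told apart from anything else that differed between these dates. Replicates are separate collections of a genotype, and the 3 libraries of a collection share their date, so they are not fully independent.

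Type VI trichomes are leaf hairs with a multicellular gland head that makes and stores terpenes and flavonols. The terpenes are built from isoprenoid precursors of the plastid methylerythritol phosphate (MEP) pathway, and the flavonols from phenylalanine through chalcone synthase, chalcone isomerase and later hydroxylases. In many plants flavonol genes respond to light, while clock genes, small heat shock proteins, dehydrins and the genes of nitrate use respond to time of day, temperature, water and nutrients.

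May libraries held 20.9 to 52.0 M gene counts (median 42.8 M) and March libraries 8.99 to 70.9 M (median 37.8 M). Levels are given as CPM, the count relative to the library's total after scaling by TMM factors, and a count of 0 allows up to 0.0423 CPM in the deepest and 0.334 CPM in the shallowest library before that scaling, for counting error only. Reads with several alignments took 5.62% to 7.56% in May and 4.68% to 5.98% in March. The libraries that stood apart on principal components 2, 3 and 4 of log CPM were all of March. CHI9 replicate 2, the shallowest, lay at 108.2 on component 2, against -74.1 to 28.2 for the others. CHI9 replicate 1 lay at 103.7 on component 3, against -38.0 to 39.3, and CHI4 replicate 2 at 103.2 on component 4, against -34.8 to 13.1. In the May libraries af replicate 4 and CHI4 replicate 4 the sequencing lanes were uneven along the chromosomes. With lane 2 alone for these libraries 0 genes were called, as with the lanes summed, and the log2 difference of a gene moved by a median of 0.0329.

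CHI1 (Solyc05g010320), the chalcone isomerase, had 339.8 and 239 CPM in af in May and 211 and 253 CPM in af in March. In the lines it had 718 to 1012 CPM in May and 418 to 1168 CPM in March, above every af library of the same month. The 5 markers of type VI glands were detected in all libraries and their summed level was 5143 to 24285 CPM in May (median 21399) and 3899 to 26892 CPM in March (median 19846). Of 12 loci of green leaf cells 8 were tested, with sums of 376 to 1142 CPM in May and 498 to 1066 CPM in March. For tips of acylsugar-making trichomes 4 of 5 loci were tested, with sums of 40.4 to 112 CPM in May and 31.5 to 131 CPM in March. No locus of the 3 marker lists was at 0 in all libraries, and all 3 sums overlapped between the months. These ranges pool 3 genotypes, and NDPS1, TPS20, TPS12 and TPS17 were lower in af than in the lines in both months. Overlap of the gland sums therefore cannot show that the months were alike within a genotype. In bulk libraries, fewer cells of a type and less RNA per cell cannot be told apart.

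No single gene separated the May from the March collections at the threshold used. Of the 17450 genes tested, 0 were higher and 0 lower in May at an edgeR adjusted p under 0.05 with genotype as a covariate (0.0% in each direction), and the smallest adjusted p was 0.104. At an unadjusted p under 0.05, 1098 genes were higher (6.29%) and 1034 lower (5.93%). Without TMM factors, which shifts the median log2 difference of all genes to -0.11, against -0.00336 with them, these counts were 523 and 1937. The middle 90% of genes had log2 differences from -0.75 to 0.75, and the median standard error (SE) of a difference was 0.218. Without CHI4 replicate 1 of March 24 genes were higher and 12 lower in May by the edgeR test, and without collection 4 of May 91 and 40. The 6 May libraries lay above all 6 March libraries for 42 genes (0.241%) and below them for 29 (0.166%).

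Collections of one month also differed from each other. The median absolute log2 difference was 0.217 for May minus March, 0.251 for collection 2 minus collection 1, both of March, and 0.269 for collection 4 minus collection 3, both of May. The date comparisons rest on 3 libraries a side and the month comparison on 6, so that their sizes include more sampling error. Between the March dates 17 genes passed the edgeR test (0.0974%), and between the May dates 220 did (1.26%). Single libraries weighed on these counts, which were 2 between the March dates without CHI9 replicate 2 and 69 between the May dates without CHI4 replicate 4. A fit with all 4 collections as terms, which sets the months against the spread within collections only, called 111 genes higher (0.636%) and 53 lower (0.304%) in May. Of these 164 genes 132 were also called by DESeq2, 13 had no overlap between the months, and 19 also differed between the May dates. DESeq2 called 262 genes (1.5%), 156 higher (0.894%) and 106 lower (0.607%), and gave no adjusted p to 1692 of the 17450. When the counts of each collection were summed, which leaves 2 May sums against 2 March sums, 15 genes were higher and 4 lower (0.0952% of 19966 tested). These sums have no genotype term and weigh each genotype by its depth. The af libraries held 70.9 and 49.1 M gene counts in March and 39.5 and 20.9 M in May. Libraries of the lines held 8.99 to 39.3 M in March and 37.7 to 52.0 M in May. Month and af content are thus mixed in the summed counts. In a fit with collection as a correlated block 0 genes passed (0.0%).

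**Figure D1:**
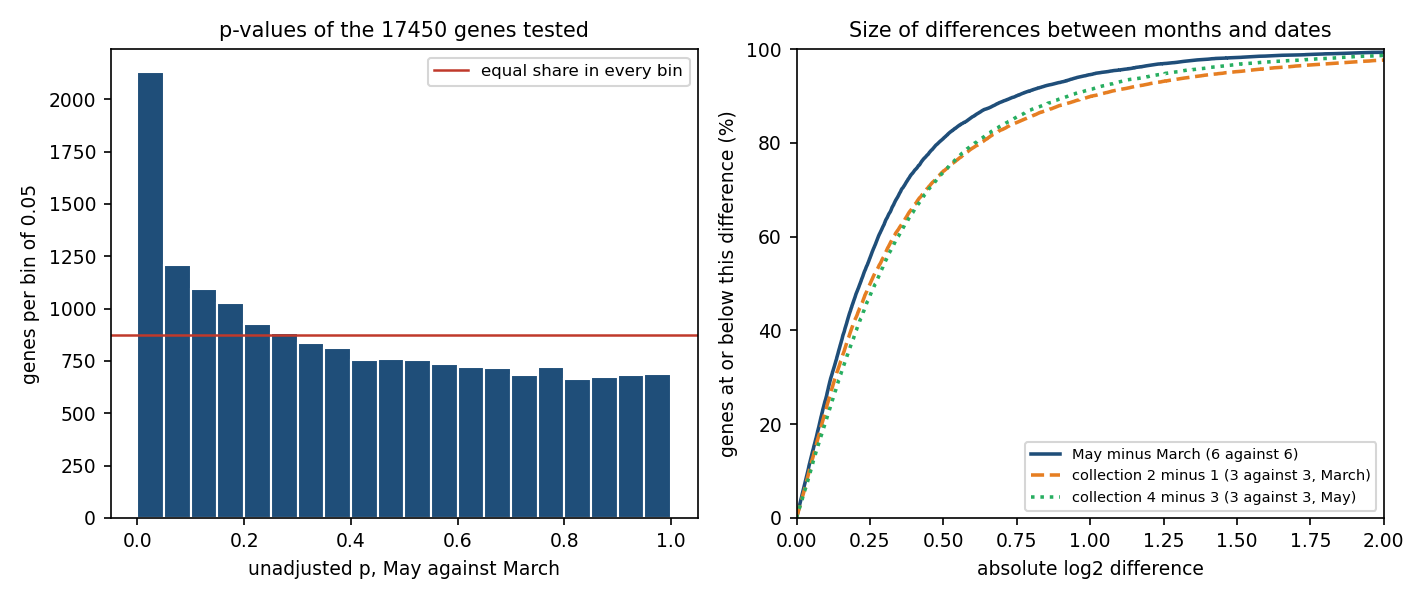
Left, number of genes (y axis) in bins of 0.05 of the unadjusted edgeR p for May against March (x axis), where the first bin holds 2132 of the 17450 genes and the line marks equal shares. Right, percentage of genes (y axis) at or below an absolute log2 difference (x axis) for the months and for the pairs of dates within a month. The curve of the months lies above both date curves, which means smaller differences, with medians of 0.217, 0.251 and 0.269.

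The difference between the months was also compared among genotypes. Set against both lines, the month difference of af gave 0 genes that passed (0.0%), 458 with an unadjusted p below 0.05, and 1 call in DESeq2 (0.00573%). For CHI9 against CHI4 0 genes passed the edgeR test (0.0%) and 854 had an unadjusted p below 0.05. Here DESeq2 called 10 genes higher and 7 lower, and edgeR without the filter on low counts 16 and 19. Within af alone 0 genes were called (0.0%, with 567 below an unadjusted 0.05), within CHI4 1 (0.00573%) and within CHI9 3 (0.0172%), which were looked up after their values were seen and could be given no name. The counts within a genotype depended on the setting. Within CHI9 there were 263 higher and 167 lower in DESeq2, and 206 and 167 without the filter on low counts. Within CHI4 there were 6 and 4 in DESeq2, and 14 and 6 without the filter. Within af there were 40 and 14 without the filter, and 0 in DESeq2, which gave 16239 of the 17450 genes no adjusted p there. In CHI4 Solyc10g084400 had 154 and 274 CPM in May and 31.5 and 24.7 CPM in March (edgeR adjusted p = 0.000363). This gene had 109 and 115 CPM in May and 129.9 and 119.6 CPM in March in af. In CHI9 it had 31.7 and 23.6 CPM in May and 18.6 and 24.1 CPM in March. The difference of its month effect between CHI9 and CHI4 did not pass the edgeR test. In CHI9 Solyc02g082770 had 40.8 and 50.3 CPM in May against 14.4 and 11.7 CPM in March, Solyc08g067240 5.08 and 3.84 CPM against 0.361 and 0.236 CPM, and Solyc11g063500 35.7 and 34.3 CPM against 125 and 92.2 CPM (edgeR adjusted p of 0.0218, 0.0426 and 0.0218). The 0.236 CPM was in CHI9 replicate 2, the shallowest library, where a count of 0 allows up to 0.334 CPM. In af and CHI4 Solyc08g067240 had 2.52 to 10.8 CPM over both months.

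Gene lists for pathways of the gland and of its surroundings held 205 loci in 27 lists, of which 167 were tested. Of these 167, 0 passed the edgeR test, 22 were higher and 23 lower at an unadjusted p under 0.05, beside 6.29% and 5.93% of all genes, and 8 were higher and 4 lower in the fit with 4 collections, beside 0.636% and 0.304%. For 7 of the 167 both May libraries of every genotype exceeded both March libraries of that genotype, beside 1.55% of all genes. For 2 they lay below them, beside 1.19%, and for 2.74% of all genes either order held. All lists were made with earlier results of these data known, so member counts above the shares of all genes are no test of the lists. Since no gene was called, the members named here beside CHI1 and the gland markers are those with an unadjusted p under 0.05, picked after their values were seen. None passed the adjusted threshold, so their differences are descriptions. Adjusted p-values quoted from the fit with 4 collections leave the spread between dates of a month out of the error. They therefore do not show a difference between months in general, and with collection as a correlated block 0 genes passed. Locus numbers were matched to names from general knowledge, since the tables give no names.

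**Figure D2:**
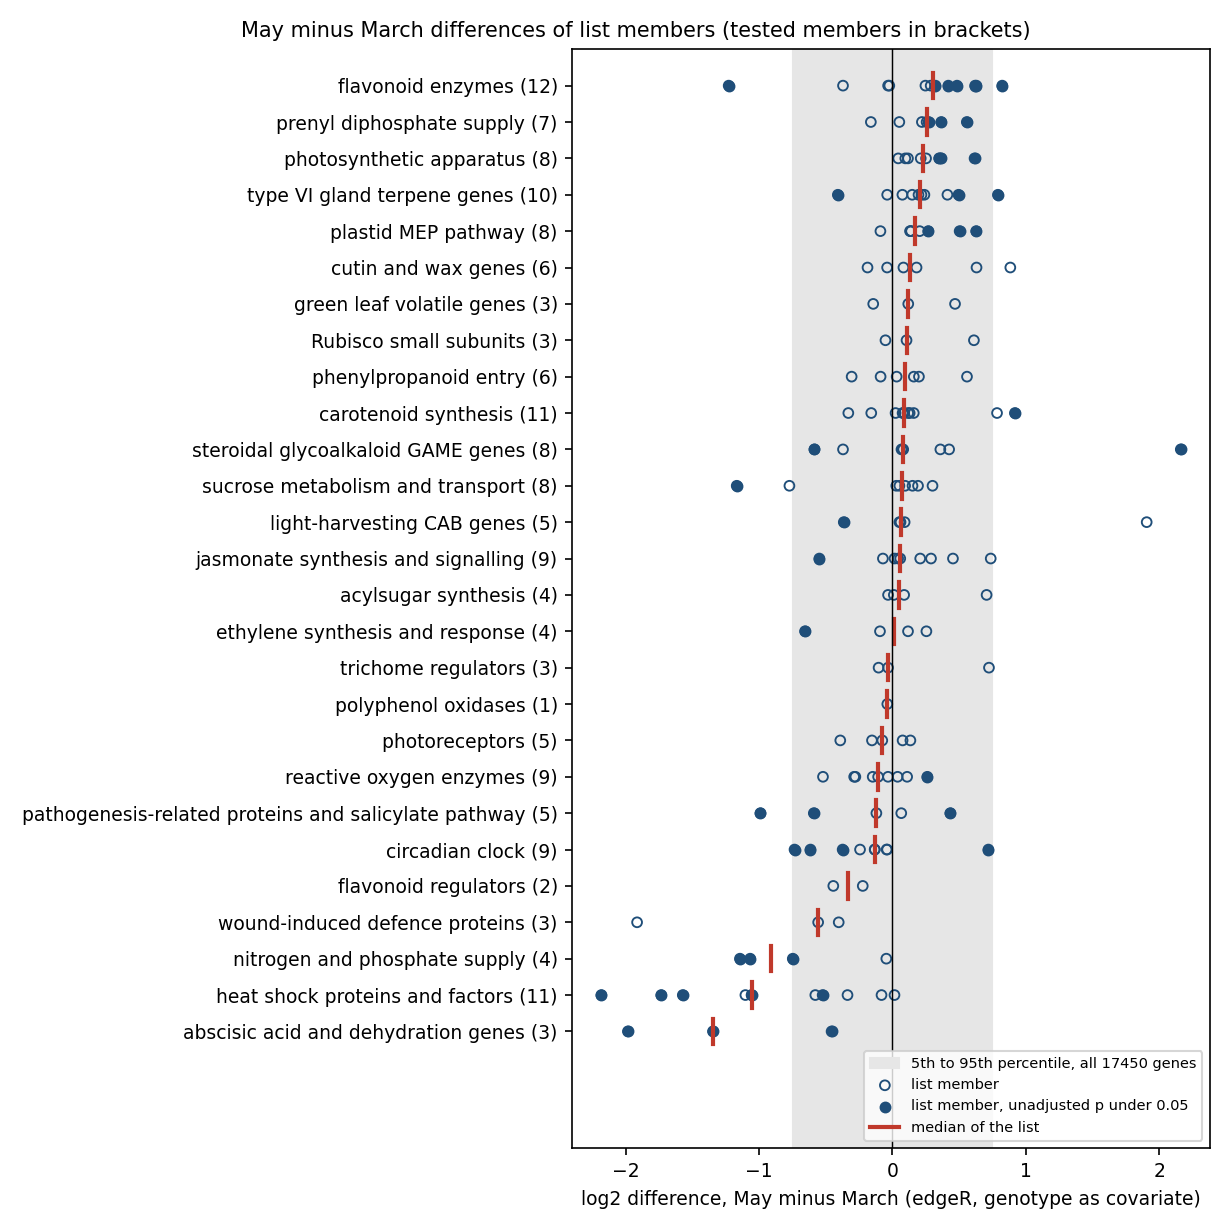
Log2 difference, May minus March, of every tested list member (x axis) by list (y axis, number of tested members in brackets), with filled points for an unadjusted p under 0.05, a red bar at the list's median and a grey band over the middle 90% of all genes. List medians run from 0.31 for the flavonoid enzymes to -1.34 for the abscisic acid and dehydration genes.

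Most enzymes on the way to flavonols had higher levels in May, none of them past the adjusted threshold. Of 12 tested flavonoid enzymes 8 had a positive and 4 a negative log2 difference, with a median of 0.31, 0 passed the edgeR test, and 6 were higher and 1 lower at an unadjusted p under 0.05. Chalcone synthase CHS1 (Solyc09g091510), which makes the first flavonoid of the pathway, had a lowest, median and highest level of 4880.3, 5321 and 5945 CPM in May and 3060.2, 3724 and 5167 CPM in March. The ranges met only through CHI4 replicate 2, which at 5167 CPM was the one March library above any May library. Its log2 difference was 0.49 (SE 0.119, edgeR adjusted p = 0.124, and 0.0271 in the fit with 4 collections).

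Flavanone 3-hydroxylase F3H (Solyc02g083860), which adds a hydroxyl group on the way to flavonols, had 2187, 2431 and 2784 CPM in May and 1376, 1869.6 and 2115 CPM in March. All 6 May libraries were above all 6 March libraries, with a log2 difference of 0.42 (SE 0.122, edgeR adjusted p = 0.186). Flavonol synthase FLS (Solyc11g013110), the last step to the flavonol, had 2405, 2994 and 3563 CPM in May and 1406, 1996 and 2521 CPM in March. Only CHI4 replicate 2 of March reached into the May range, and the log2 difference was 0.62 (SE 0.145, edgeR adjusted p = 0.123, and 0.0089 in the fit with 4 collections). The chalcone isomerase-like gene CHIL (Solyc05g052240), known in other plants to raise the yield of chalcone synthase, had 1124, 2062 and 2792 CPM in May and 657, 1207 and 1902 CPM in March, with a log2 difference of 0.82 (SE 0.195, edgeR adjusted p = 0.124). In each genotype both May libraries exceeded both March libraries for CHS1, F3H, FLS and CHIL. Leaving out any 1 library kept the log2 difference between 0.43 and 0.56 for CHS1, between 0.54 and 0.69 for FLS and between 0.66 and 0.92 for CHIL.

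Flavonoid 3'-hydroxylase F3'H (Solyc03g115220), which sets the quercetin type of flavonol, had 1661, 2309 and 2507 CPM in May and 818, 1400.2 and 2264 CPM in March. Its log2 difference was 0.63 (SE 0.153, edgeR adjusted p = 0.124), with the months overlapping in af, where a March library had 2264 CPM and the May libraries 2507 and 2227 CPM. A flavonoid 3-O-glucosyltransferase (3GT, Solyc10g083440) had a log2 difference of 0.32, with 0.60 in af, -0.12 in CHI4 and 0.49 in CHI9. The opposite sign was seen in flavonoid 3',5'-hydroxylase F3'5'H (Solyc11g066580), which leads to the blue anthocyanins and was scarce here, at 0.115 to 3.34 CPM in May and 0.323 to 12.2 CPM in March (log2 difference -1.23, SE 0.499, edgeR adjusted p = 0.320). CHI1 had a log2 difference of 0.25 (SE 0.199, edgeR adjusted p = 0.669). The 2 tested flavonoid regulators had negative log2 differences of -0.44 and -0.22, and 0 of them had an unadjusted p under 0.05 or a call in DESeq2.

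The flavonol enzymes also differed between the dates of a month. For collection 2 minus collection 1, both of March, the log2 difference was 0.32 for CHS1, 0.23 for F3H, 0.43 for FLS, 0.53 for CHIL and 0.55 for F3'H. For collection 4 minus collection 3, both of May, it was -0.03, -0.27, -0.44, -0.64 and 0.11 for the same genes. These date differences did not pass the edgeR test, with adjusted p-values of 0.0828 to 0.976. The list as a whole had a median log2 difference of 0.49 between the March dates and 0.00 between the May dates, so its median between months (0.31) was smaller than between the March dates. Over the 4 dates CHS1, F3H, FLS, CHIL and F3'H were lowest on 19 March in every genotype, and FLS, CHIL and F3H were highest on 5 May in every genotype.

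Within the MEP pathway DXS2 and DXR, which act at its entry, had the largest differences. Of 8 tested MEP loci 7 had a positive log2 difference (median 0.17), 0 passed, and 3 were higher at an unadjusted p under 0.05. DXS2 (Solyc11g010850), the trichome form of the enzyme that opens the pathway, had 1938, 4563 and 5035 CPM in May and 1348, 2751 and 3912 CPM in March. Levels in af were lower than in the lines in both months, so the months are best read within genotypes. In af DXS2 had 2470 and 1938 CPM in May against 1368 and 1348 CPM in March, in CHI4 4828 and 4298 CPM against 3912 and 2740 CPM, and in CHI9 5035 and 4871 CPM against 2763 and 3203 CPM. Its log2 difference of 0.63 (SE 0.123) had an edgeR adjusted p of 0.104, which it shared with other genes as the smallest, and 0.0151 in the fit with 4 collections. Leaving out any 1 library kept it between 0.57 and 0.72. Without CHI4 replicate 1 of March DXS2 and DXR passed the edgeR test (adjusted p = 0.0207 and 0.0440). That library held the highest March level of both genes. Over all fits without a library or collection, their highest edgeR adjusted p was 0.301 and 0.389.

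DXR (Solyc03g114340), the second enzyme, had 708 and 560.3 CPM in af in May against 469 and 487 CPM in March. In CHI4 it had 1944 and 1874 CPM against 1854 and 991 CPM, and in CHI9 2089 and 1972 CPM against 1166 and 1368 CPM. Both May libraries of each genotype were above both March libraries, with a log2 difference of 0.50 (SE 0.138, edgeR adjusted p = 0.167). HDS (Solyc11g069380), the enzyme before the last, had a log2 difference of 0.27, and the other 5 loci lay between -0.09, for DXS1 (Solyc01g067890), another form of the first enzyme, and 0.21. Between dates of a month DXS2 and DXR had log2 differences of -0.12 and -0.21 in March and -0.19 and -0.15 in May, smaller than between the months.

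**Figure D3:**
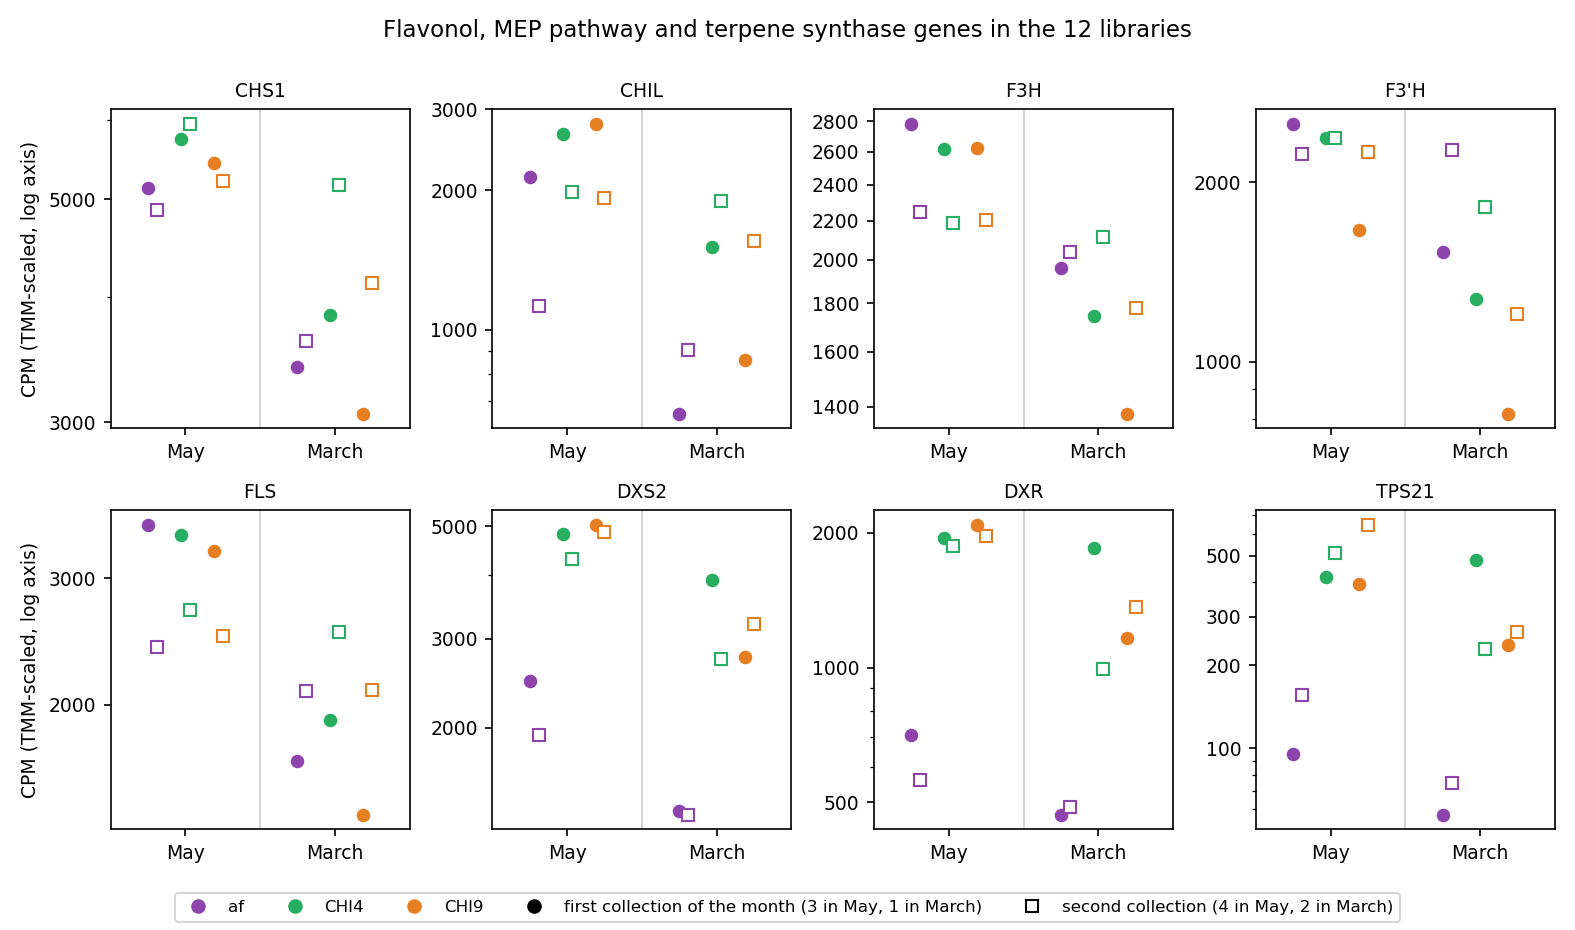
Level of 8 genes in each of the 12 libraries (CPM on a log y axis) by month (x axis), with colour for genotype, filled circles for the first and open squares for the second collection of a month. For F3H all May points lie above all March points, and for CHS1, CHIL, FLS, DXS2 and DXR both May points of a genotype lie above both of its March points.

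Of 7 tested loci of prenyl diphosphate supply 6 had a positive log2 difference, 0 passed and 3 were higher at an unadjusted p under 0.05. Farnesyl diphosphate synthase FPS1 (Solyc12g015860), which makes the precursor of sesquiterpenes and sterols, had a log2 difference of 0.56 between months (SE 0.238, edgeR adjusted p = 0.366). The May collections were unlike each other in this gene. On 12 May FPS1 had 82.6, 71.0 and 82.9 CPM in af, CHI4 and CHI9, against 99.6, 169 and 202 CPM in the same genotypes on 5 May. It fell by 0.94 on the log2 scale between these dates, which passed the edgeR test (adjusted p = 0.0125). HMGR1 (Solyc02g082260), a reductase of the mevalonate pathway, which feeds FPS1, fell by 0.70 between the same dates (edgeR adjusted p = 0.0419), and had a log2 difference of 0.37 between months. Without collection 3 the log2 difference of HMGR1 between months was -0.02. The geranylgeranyl diphosphate synthase GGPPS3 (Solyc02g085700) had a log2 difference of 0.27 between months.

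Among the terpene genes of the gland, the abundant markers, averaged over genotypes, were close between months. A pair of other synthase genes had higher levels in May. Of 10 tested loci 8 had a positive log2 difference (median 0.21), 0 passed, and 2 were higher and 1 lower at an unadjusted p under 0.05. TPS21 (Solyc08g005720), a terpene synthase of the gene cluster on chromosome 8, had 95.6 and 156 CPM in af in May against 57.4 and 74.9 CPM in March. In CHI4 it had 417 and 512 CPM against 481 and 229.9 CPM, and in CHI9 396 and 648 CPM against 236 and 265 CPM. Its May libraries were higher in af and CHI9 and overlapped with March in CHI4, with a log2 difference of 0.79 (SE 0.201, edgeR adjusted p = 0.158, and 0.0441 in the fit with 4 collections). TPS18 (Solyc08g005640) of the same cluster had a log2 difference of 0.50 (SE 0.142, edgeR adjusted p = 0.184), again with both May libraries above both March libraries in af and CHI9. Without CHI4 replicate 1 of March both passed the edgeR test (adjusted p = 0.0207 and 0.0440), with log2 differences of 1.00 and 0.66. That library held the highest March level of both genes. Over all fits without a library or collection, the highest edgeR adjusted p was 0.392 for TPS21 and 0.432 for TPS18.

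The markers of the same cluster were closer between months. NDPS1 (Solyc08g005680), which makes the monoterpene precursor of this trichome, had a log2 difference of 0.22 (SE 0.124, edgeR adjusted p = 0.512). In af NDPS1 had 923 and 887 CPM in May against 636 and 626 CPM in March. Its log2 difference was 0.52 in af, 0.02 in CHI4 and 0.11 in CHI9. The monoterpene synthase locus TPS20 (Solyc08g005670) had 0.08 (SE 0.154), with 0.44 in af, -0.07 in CHI4 and -0.15 in CHI9. The sesquiterpene synthase TPS12 (Solyc06g059930) had 0.15 (SE 0.122), and MYC1 (Solyc08g005050), a regulator of type VI gland growth and terpene synthases, had -0.03 (SE 0.114), with 583 to 795 CPM in May and 610.0 to 742 CPM in March. TPS17 (Solyc12g006570), another sesquiterpene synthase, had -0.41 (SE 0.173, edgeR adjusted p = 0.349), with its highest level, 1299 CPM, in CHI4 replicate 1 of March. The other tested trichome regulators, EOT1 (Solyc02g062400) and the scarce Woolly (Solyc02g080260), had -0.10 and 0.72, with 0 of the 3 regulators at an unadjusted p below 0.05 or called in DESeq2. Acylsugar loci had log2 differences from -0.03 to 0.71, with 0 of 4 with an unadjusted p below 0.05 and 0 called in DESeq2. The 0.71 was of the scarce ASAT4 (Solyc01g105580), to which DESeq2 gave no adjusted p.

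Transcripts of photosynthesis genes were counted in every library, and all 8 tested loci of the photosynthetic apparatus had a positive log2 difference (0.04 to 0.62, median 0.23). Of these 0 passed and 3 were higher at an unadjusted p under 0.05. PsbS (Solyc06g060340), which lets the antenna of photosystem II release excess light as heat, had 44.4, 58.2 and 70.3 CPM in May and 21.1, 40.7 and 46.8 CPM in March. The ranges overlapped by little, and the log2 difference was 0.62 (SE 0.159, edgeR adjusted p = 0.138, and 0.0403 in the fit with 4 collections). PsaD (Solyc06g054260), a subunit of photosystem I, and the Rubisco activase locus RCA (Solyc10g086580) had log2 differences of 0.36 (SE 0.114) and 0.35 (SE 0.136). Of 5 tested antenna loci 4 were positive and 1 was negative (median 0.06), 0 passed, and the negative one, CAB Solyc03g005760, was lower at an unadjusted p under 0.05. It had -0.36 (SE 0.137), with -0.72 in af, -0.27 in CHI4 and -0.11 in CHI9. This gene lies beside close copies between which reads can be split. Rubisco small subunits had -0.05 to 0.61, with 0 of 3 with an unadjusted p below 0.05 and 0 called in DESeq2. The summed markers of green leaf cells overlapped between months, as given above, and their part in these differences was not tested.

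Clock genes had differences of both signs. Of 9 tested loci 1 was positive and 8 were negative (median -0.13), 0 passed, and 1 was higher and 3 lower at an unadjusted p under 0.05. LHY (Solyc10g005080), a transcription factor of the morning that holds back evening genes in Arabidopsis, had 66.0, 121 and 157 CPM in May and 37.6, 68.9 and 117 CPM in March. The log2 difference was 0.72 (SE 0.237, edgeR adjusted p = 0.250, and 0.00829 in the fit with 4 collections). On 28 March LHY had 117, 85.8 and 84.0 CPM in af, CHI4 and CHI9, against 53.8, 51.7 and 37.6 CPM in the same genotypes on 19 March. This rise of 1.00 on the log2 scale within March passed the edgeR test (adjusted p = 0.0110), so LHY differed more between the March dates than between the months.

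PRR5 (Solyc03g081240), a pseudo-response regulator of the later day, had 6.45, 32.8 and 50.7 CPM in May and 19.1, 55.5 and 74.1 CPM in March, with a log2 difference of -0.73 (SE 0.189, edgeR adjusted p = 0.143). Its May levels were below those of March in af and CHI4 and overlapped in CHI9. Within May it had a log2 difference of 0.75 between the dates, opposite in sign to that between months. FKF1 (Solyc01g005300), a blue-light receptor that acts in day length sensing in Arabidopsis, had 31.0, 103 and 134 CPM in May and 41.7, 164 and 243 CPM in March. It was lower in both lines in every May library, and overlapped in af, with a log2 difference of -0.61 (SE 0.178, edgeR adjusted p = 0.187). A GIGANTEA locus (GI, Solyc04g071990), whose Arabidopsis product binds FKF1, had -0.37 (SE 0.141). The other GI locus, Solyc12g056650, was more abundant, at a mean of 204 CPM against 78.3 CPM. It had -0.04 (SE 0.208) between months and 0.91 between the May dates. In the fit with 4 collections PRR5 and FKF1 had adjusted p-values of 0.0186 and 0.0489. With collection as a correlated block (limma-voom) they had 0.104 and 0.194, and with summed collections (edgeR) 0.617 and 0.727. Photoreceptor loci had log2 differences from -0.39 to 0.14, with 0 of 5 with an unadjusted p below 0.05 and 0 called in DESeq2. The time of day of the collections is not stated.

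**Figure D4:**
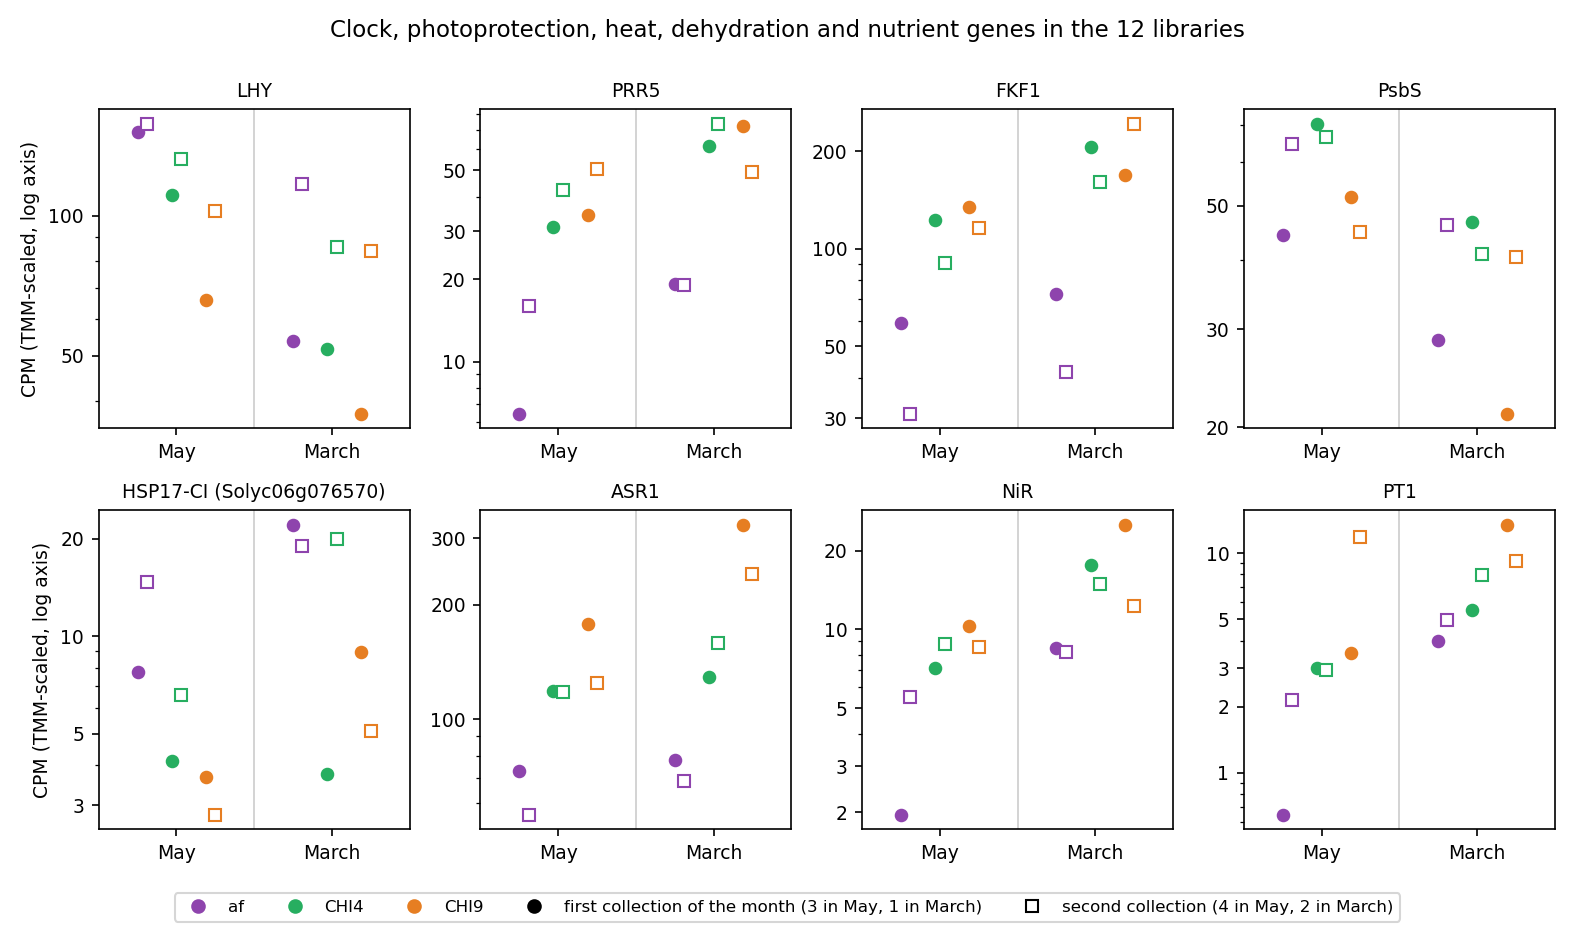
Level of 8 genes in each of the 12 libraries (CPM on a log y axis) by month (x axis), with colour for genotype, filled circles for the first and open squares for the second collection of a month. LHY and PsbS sit higher in May and the other 6 genes lower, and for LHY the first March collection, at 37.6 to 53.8 CPM, lies below the second.

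Heat shock genes had the lowest median of the larger lists, on low counts. Of 11 tested loci 10 had a negative log2 difference (median -1.05), 0 passed, and 5 were lower at an unadjusted p under 0.05. The class I small heat shock protein Solyc06g076570, a chaperone made in heat, had 2.81, 5.34 and 14.7 CPM in May and 3.76, 14.0 and 22.2 CPM in March. Of the 6 March libraries 3 lay within the May range, and the log2 difference was -1.06 (SE 0.320, edgeR adjusted p = 0.203). Its tandem copy Solyc06g076560 had -1.73 (SE 0.507), and since the 2 genes are close copies their split of reads is uncertain. The class II gene Solyc08g062450 differed most in CHI9. It had 0.182 and 0.234 CPM in CHI9 in May against 4.20 and 2.84 CPM in March, a log2 difference of -4.08 there, beside -0.80 in af and -0.79 in CHI4. The comparison of CHI9 with CHI4 called 0 genes in edgeR and 17 in DESeq2, which are not listed here. CHI9 was not tested against af alone.

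The other class II gene, Solyc08g062340, was near the floor, at 0.0468 to 1.92 CPM in May and 0 to 4.26 CPM in March, and the 0 was in CHI9 replicate 2. HSFB1 (Solyc02g090820), a heat shock factor that represses transcription in several plants, had 11.1, 21.4 and 38.6 CPM in May and 21.0, 26.5 and 50.3 CPM in March (log2 difference -0.52, SE 0.178, edgeR adjusted p = 0.239). The class I gene Solyc06g076570 had positive log2 differences between dates, 0.41 within March and 0.44 within May. Without CHI9 replicate 2, the shallowest library, the list's median was -0.86. All plants were grown at one stated temperature.

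Dehydration genes followed the same sign. Of 5 loci 3 were tested and all were negative (median -1.34), 0 passed and 3 were lower at an unadjusted p under 0.05. ASR1 (Solyc04g071610), a small protein induced by abscisic acid, stress and ripening, had 56.0, 118 and 178 CPM in May and 68.6, 144 and 326 CPM in March. Both May libraries were below both March libraries in CHI4 and in CHI9 and overlapped with them in af, and the log2 difference was -0.46 (SE 0.142, edgeR adjusted p = 0.206). ASR2 (Solyc04g071580) had 0.507 to 3.11 CPM in May and 1.18 to 6.57 CPM in March, and the dehydrin TAS14 (Solyc02g084850), a protein of drying cells, had 0.0998 to 2.53 CPM and 0.572 to 6.48 CPM. Their log2 differences were -1.34 (SE 0.461) and -1.98 (SE 0.710), at levels where single libraries weigh heavily.

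Of nitrate and phosphate supply 4 loci were tested. All 4 had negative log2 differences (median -0.91), 0 passed, 3 were lower at an unadjusted p under 0.05, and the fourth, the plastid glutamine synthetase GS2 (Solyc01g080280), had -0.04 (SE 0.118). Nitrite reductase NiR (Solyc10g050890), which turns nitrite into ammonium in plastids, had 1.96 and 5.53 CPM in af in May against 8.46 and 8.17 CPM in March. In CHI4 it had 7.15 and 8.83 CPM against 17.7 and 14.9 CPM, and in CHI9 10.3 and 8.58 CPM against 25.1 and 12.3 CPM. Every May library was below both March libraries of its genotype, with a log2 difference of -1.07 (SE 0.240, edgeR adjusted p = 0.107, and 0.0320 in the fit with 4 collections). The log2 difference was -1.17 in af, -1.03 in CHI4 and -1.0 in CHI9, and it stayed between -1.25 and -0.91 when any 1 library was left out.

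Nitrate reductase NIA (Solyc11g013810), the step before, had 8.98, 14.6 and 23.0 CPM in May and 12.6, 22.7 and 49.0 CPM in March (log2 difference -0.75, SE 0.267, edgeR adjusted p = 0.274). The phosphate transporter PT1 (Solyc09g090070) had 0.645, 2.97 and 11.8 CPM in May and 3.99, 6.75 and 13.5 CPM in March (log2 difference -1.14, SE 0.347, edgeR adjusted p = 0.198). Its highest May value, 11.8 CPM in CHI9 replicate 4, lay within the March range, and the 5 other May libraries were below every March library.

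**Figure D5:**
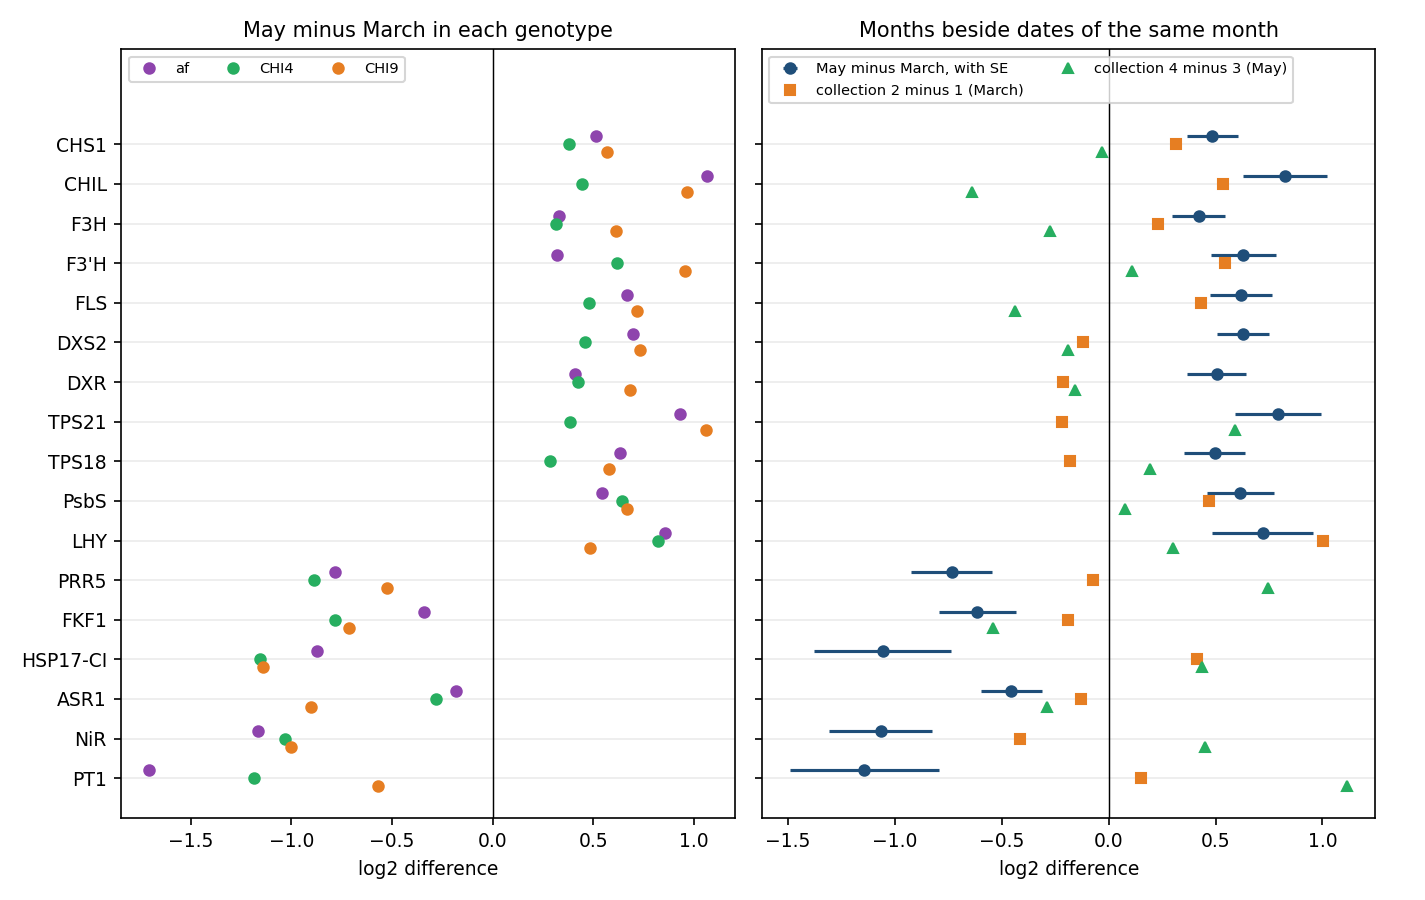
Log2 differences (x axes) of 17 named genes (y axis), on the left May minus March in each genotype, with 1 sign in all 3 genotypes for every gene shown, and on the right May minus March over all genotypes with its SE, beside collection 2 minus collection 1 and collection 4 minus collection 3. LHY differs by 1.00 between the March dates and by 0.72 between months, and DXS2 and DXR differ by -0.21 to -0.12 between dates and by 0.63 and 0.50 between months.

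Defence and hormone genes gave few members. Of 5 tested pathogenesis-related and salicylate genes (median -0.12) 0 passed, 1 was higher and 2 were lower at an unadjusted p under 0.05. The glucanase GLUA (Solyc01g008620), which cuts fungal cell walls, had 6.51, 12.1 and 21.9 CPM in May and 13.5, 24.5 and 43.0 CPM in March (log2 difference -0.99, SE 0.287, edgeR adjusted p = 0.198). The chitinase CHI3 (Solyc02g082920) had -0.59 (SE 0.214), and ICS1 (Solyc06g071030), an enzyme on the way to salicylate, 0.44 (SE 0.162). Of 9 tested jasmonate loci (median 0.06) 0 passed and 1 was lower at an unadjusted p under 0.05, the repressor JAZ1 (Solyc07g042170), with a log2 difference of -0.55 (SE 0.216) and values of -0.07 in af, -0.98 in CHI4 and -0.59 in CHI9. The 4 tested ethylene loci had a median of 0.01, and 0 passed. The 3 tested wound-induced loci, all near 1 CPM or below on average, had a median of -0.56, which was 0.17 without CHI9 replicate 2. The abundant polyphenol oxidase Solyc08g074620, an enzyme that browns damaged tissue, had -0.04.

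In the remaining lists the medians were close to that of all genes and single members differed more, most of them at low levels. They were 0.07 for sucrose metabolism (8 tested), 0.08 for steroidal alkaloids (8 tested), 0.09 for carotenoids (11 tested) and -0.11 for reactive oxygen enzymes (9 tested), and 0 members passed. LIN6 (Solyc10g083290), a cell wall invertase that splits sucrose, had 1.77, 4.23 and 5.5 CPM in May and 3.78, 7.75 and 18.3 CPM in March (log2 difference -1.17, SE 0.337, edgeR adjusted p = 0.186). GAME1 (Solyc07g043490), a glycosyltransferase of tomato alkaloids, had 0.299, 0.543 and 0.702 CPM in May and 0, 0.109 and 0.270 CPM in March. The May libraries did not overlap with those of March, all at levels below 1 CPM, and the 0 was in the shallowest library, where a count of 0 allows up to 0.334 CPM. Its neighbour GAME17 (Solyc07g043480), of the same enzyme family, had the opposite sign, at 0.902, 6.11 and 10.6 CPM in May and 1.54, 8.62 and 16.3 CPM in March, with both May libraries below both March libraries in each genotype (log2 difference -0.58, SE 0.220, edgeR adjusted p = 0.286). Zeaxanthin epoxidase ZEP (Solyc02g090890), which makes violaxanthin, had a log2 difference of 0.92 (SE 0.358), and the iron superoxide dismutase FeSOD (Solyc06g048410) 0.26 (SE 0.111). The lists of phenylpropanoid entry, cutin and wax, and green leaf volatiles had medians of 0.10, 0.13 and 0.12. They had 0 members with an unadjusted p below 0.05 and 0 called in DESeq2, which gave no adjusted p to TTS2 (Solyc12g006520) of the cutin list. Without TMM factors, the medians of the lists of phenylpropanoid entry, acylsugars, Rubisco, antenna proteins, jasmonate, ethylene, alkaloids, carotenoids and sucrose, all between 0.01 and 0.11 with them, were negative (-0.09 to -0.00078).

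Outside the lists 4 unnamed genes were followed. Candidates had at least 5 CPM on average, an unadjusted p under 0.05, no overlap between months and the same direction in 3 genotypes. The 2 with the largest log2 differences were taken in each direction, although none was called. Solyc08g076780 had 38.1, 52.8 and 68.3 CPM in May and 11, 27.5 and 36.1 CPM in March (log2 difference 1.09, SE 0.228, edgeR adjusted p = 0.104). Solyc02g082770 had 19.3, 21.5 and 50.3 CPM in May and 11.7, 14.7 and 17.9 CPM in March, with 1.79 in CHI9 and 0.28 in af on the log2 scale. Solyc09g011580 had 3.40, 5.11 and 7.69 CPM in May and 8.51, 10.6 and 18.3 CPM in March (log2 difference -1.21, SE 0.250, edgeR adjusted p = 0.104). Solyc02g094390 had 4.59, 5.39 and 7.24 CPM in May and 8.04, 10.9 and 16.8 CPM in March (log2 difference -1.07, SE 0.226, edgeR adjusted p = 0.104).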

How the data were processed

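RNA-seq of 12 libraries was counted per gene by the authors and deposited as whole-number counts per gene model and lane. The submitters' processing notes name Trimmomatic, TopHat2, SAMtools and HTSeq. Neither the strand setting nor whether a count is a read or a pair is given in the sources used here. The lanes of each library were summed, 5 summary entries that name no gene were left out, and 17450 genes passed edgeR's expression filter. May was tested against March with edgeR's quasi-likelihood test (version 4.0.16, limma 3.58.1, R 4.3.3), TMM factors, genotype as covariate and Benjamini-Hochberg adjustment over all tested genes at 0.05. DESeq2 (version 1.42.0), limma-voom, other scalings, no filter, single lanes, summed collections, a term per collection and left-out libraries were the alternatives. Voom with sample quality weights, and the filter grouped by genotype, were chosen after seeing the data. The script was tested on simulated counts. All gene lists, and the choice of months, were made with earlier results of these data known.

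The rule for named genes took called list members, the gland markers, CHI1 and up to 4 unnamed genes. As 0 genes were called, list members with an unadjusted p under 0.05 took the place of called ones. A list member that met this is not reported here. Of 214 loci in 27 lists 125 were found on the expected chromosome in a RefSeq table, 7 on another (not used), 49 were not in it and 33 carry family names. Besides these 7, 2 loci were not in the tables given here, and of the 205 used 38 were below the filter. Sampling times in the labels are shared by the genotypes, so that replicate numbers pair the libraries. Libraries of one collection deviated together weakly, with a median correlation of 0.123 (-0.029 to 0.205), against -0.0145 for other collections of the month and -0.0503 for the other month.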

Additional observations from a re-analysis of the deposited data

Results flagged for a closer look

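In 106 groups of 6 libraries (named gene by month) 6 held a library far from the others by Dixon's criterion. For like libraries chance gives about 1 in 20. Each group mixes 3 genotypes, so this rate is only a guide. In May, F3'H was low in CHI9 replicate 3, at 1661 CPM, with the next library at 2227 CPM. HSP17-CII (Solyc08g062450) was high in af replicate 4 of May, at 26.1 CPM, with the next at 5.97 CPM. TAS14 reached 2.52 CPM in CHI4 replicate 3 of May, with the next at 0.608 CPM, and PT1 reached 11.8 CPM in CHI9 replicate 4 of May, with the next at 3.53 CPM. In March, F3'5'H was high in CHI9 replicate 2, at 12.2 CPM, with the next at 4.66 CPM, and LIN6 was high in CHI9 replicate 1, at 18.3 CPM, with the next at 9.20 CPM.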

How the results depend on the processing

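With 0 genes called in either direction in the edgeR test, other settings gave 156 higher and 106 lower (DESeq2), 1 and 2 (limma-voom), 262 and 207 (no filter on low counts, 24536 genes), 15 and 4 (counts summed per collection) and 111 and 53 (a term per collection), and lane 1 alone 1 lower. Leaving out libraries or collections gave 0 to 91 higher and 0 to 40 lower. The collection as a replicate block gave 0 of either. Between CHI9 and CHI4, where 0 genes differed in their month difference, DESeq2 gave 10 higher and 7 lower, and no filter 16 and 19. For af against the lines, where 0 genes passed, DESeq2 gave 1 and no filter 17, and leaving out a library 0. The count between March dates (17) was 82 with DESeq2 and 199 without a filter, and 2 to 27 without a library. The count between May dates (220) was 520 with DESeq2 and 640 without a filter, and 69 to 332 without a library. The cause of these changes was not tested.

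Of 54 named genes 32 were called under some alternative. Without the filter on low counts 29 were called, beside 469 of all 24536 genes, and in DESeq2 19, beside 262 of 17450. Most named genes were picked for a small unadjusted p in these same data. More calls among them than among all genes thus follow from that choice and do not measure robustness. Of the named genes 8 changed sign under some setting. TPS20 Solyc08g005670 had -0.0311 without scaling factors, -0.0719 without a genotype term and -0.106 to 0.249 without a library or collection. With summed collections TPS17 Solyc12g006570 had 0.258, CAB Solyc03g005760 0.147, GAME17 Solyc07g043480 0.0486, ZEP Solyc02g090890 -0.0523 and MYC1 Solyc08g005050 0.0011. These sums have no genotype term and held fewer af counts in May than in March. In both months TPS17, this CAB locus and GAME17 were lower in af than in the lines, and ZEP was higher. The part of the genotype mix in these sign changes was not tested. MYC1 had 0.0051 with quality weights and -0.190 to 0.113 without a library or collection. Without a library or collection HMGR1 Solyc02g082260 had -0.0205 to 0.677 and CHI1 Solyc05g010320 -0.0494 to 0.665. Depth limits what the shallowest library shows below about 0.334 CPM, as for GAME1, which had a count of 0 there.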
